A study of Mus musculus with 8 samples.

Results

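Cells hold zinc at very low free levels by binding it and by moving it across membranes. Metallothioneins are small, cysteine-rich proteins that bind zinc and copper through their sulfur atoms, ZIP proteins (genes named Slc39a) carry zinc into the cytosol, and ZnT proteins (genes named Slc30a) carry it out of the cytosol, into vesicles or out of the cell. Mtf1 is the zinc-sensing transcription factor that binds metal response elements in the promoters of Mt1, Mt2 and Slc30a1, and in macrophages exposed to bacterial products this system limits the zinc that a pathogen can reach.

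The 6 genes described here are 2 metallothioneins (Mt1 and Mt2), Mtf1, the zinc exporter of the plasma membrane Slc30a1 (ZnT1) and the related metal importers Slc39a8 (ZIP8) and Slc39a14 (ZIP14), which also carry manganese and iron. They were chosen by name, and all 6 were found by their Ensembl identifiers among the 52636 identifiers of the count table. All 6 also passed the filter on low counts that left 13847 genes for testing. RNA was sequenced from primary microglia of wild-type mice, labelled C57BL/6 and named C57BL/6N in the methods of the study, 4 cultures labelled vehicle and 4 labelled LPS, the latter treated for 24 hours with 5 µg/ml of the bacterial cell wall component lipopolysaccharide. The cells had been shaken off mixed glial cultures of newborn mouse brain and were kept in both groups in medium with 10% fetal bovine serum and 10 ng/ml CSF-1, so they model microglia outside the brain, and zinc in that medium was not measured. The labels call the cultures biological replicates and do not say whether a culture was pooled from several animals.

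Libraries held 20071921 to 30604447 counts. Levels are given in CPM, counts per 1000000 of the library size after TMM scaling between libraries, which is described below. The microglial markers fixed for this check were detected in every library. Their summed level was 8224 to 10421 CPM in vehicle and 3298 to 3742 CPM in LPS libraries. Of the 10, 8 were called lower after LPS, Itgam was higher and Aif1 was not called. Among all 13847 tested genes 30.3% were higher and 33.8% lower by the same test, described below. The 10 astrocyte markers summed to 20.6 to 47.7 CPM in vehicle and 41.4 to 124 CPM in LPS libraries, where 28.9 to 98.1 CPM came from Gja1 alone, and the other 9 summed to 19.8 to 46.6 and 10.4 to 25.9 CPM. Summed endothelial markers were at 31.9 to 82.0 CPM in vehicle and 127 to 217 CPM in LPS libraries (Cdh5 and Flt1 higher, Kdr not called, Cldn5, Tek, Esam, Egfl7 and Tie1 too low to test). Fibroblast and mural markers summed to 3.76 to 7.56 and 7.57 to 25.0 CPM. Dcn alone gave 0.0355 to 0.245 and 4.71 to 19.4 CPM of these. It was called higher from 1 to 7 counts in vehicle libraries. Pdgfrb (-1.03) and Acta2 (0.11) were not called, and Col1a1, Col1a2, Lum, Rgs5 and Col3a1 were too low to test. Markers of the oligodendrocyte lineage summed to 101 to 166 and 24.6 to 43.8 CPM, with 4 of 8 tested lower. Those of neurons summed to 14.0 to 48.0 and 4.90 to 21.7 CPM, with 4 of 6 tested lower. The other tested genes of these lists were not called, beside 33.8% lower among all tested genes. These marker levels move with treatment, and their part in the results below was not tested. LPS replicate 3 stood apart from the other libraries in base composition: with genes split by GC content into 5 equal bins, those of the lowest bin deviated from their group mean by a median of 0.30 (log2) and those of the highest bin by -0.30, and those of any other library by -0.13 to 0.13. The changes of the 6 genes are therefore also given without that library. Of the other 29 tested genes of the lists used below, 3 were called differently without it (Mt3, Slc30a4 and Gclc), and the log2 fold changes of the rest moved by at most 0.32.

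Mt1 and Mt2 lie next to each other on chromosome 8 (GRCm38). Their coding sequences are shown because the 50-base reads have to tell these relatives apart and because the cysteine codons, in capitals, carry the metal-binding residues. The coding parts come from GENCODE vM21 transcripts Mt1-201 (chr8:94179311-94180193, start to stop codon, plus strand, 3 exons) and Mt2-201 (chr8:94172848-94173427, plus strand, 3 exons).
Mt1 coding: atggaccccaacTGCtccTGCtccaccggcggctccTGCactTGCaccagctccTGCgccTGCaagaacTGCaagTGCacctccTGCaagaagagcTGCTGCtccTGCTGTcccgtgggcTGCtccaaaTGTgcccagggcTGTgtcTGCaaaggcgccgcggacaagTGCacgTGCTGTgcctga
Mt2 coding: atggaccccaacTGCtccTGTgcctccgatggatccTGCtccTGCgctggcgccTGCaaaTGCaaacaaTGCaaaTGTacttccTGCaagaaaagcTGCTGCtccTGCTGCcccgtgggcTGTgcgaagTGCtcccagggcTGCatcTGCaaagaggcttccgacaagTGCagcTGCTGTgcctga
Both hold 61 codons and a stop codon, 20 of the 61 encode cysteine (32.8%), and all 20 cysteine codons sit at the same position in both. The sequences shared 148 of 186 bases (79.6%), and the longest identical run was 20 bases, shorter than a read. No 50-base window of the annotated transcripts of Mt1 or Mt2 occurred in the same orientation in transcripts of another gene, so uniquely aligned reads of this length separate the 2 genes.

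The promoters of Mt1, Mt2 and Slc30a1, taken from RefSeq on GRCm38.p6 from 250 bases before the transcription start to 50 bases after it, are shown because these are the genes known to answer to Mtf1. Capitals mark the core of the metal response element, searched as TGCACNC or TGCGCNC on both strands; a core on the minus strand appears as its reverse complement.
Mt1 promoter, chr8:94178839-94179138, plus strand: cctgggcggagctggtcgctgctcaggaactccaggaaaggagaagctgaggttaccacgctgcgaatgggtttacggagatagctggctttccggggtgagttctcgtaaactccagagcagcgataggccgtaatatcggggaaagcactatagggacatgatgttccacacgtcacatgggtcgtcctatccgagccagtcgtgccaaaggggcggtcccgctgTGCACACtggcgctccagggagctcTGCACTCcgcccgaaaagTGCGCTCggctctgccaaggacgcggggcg
Mt2 promoter, chr8:94172368-94172667, plus strand: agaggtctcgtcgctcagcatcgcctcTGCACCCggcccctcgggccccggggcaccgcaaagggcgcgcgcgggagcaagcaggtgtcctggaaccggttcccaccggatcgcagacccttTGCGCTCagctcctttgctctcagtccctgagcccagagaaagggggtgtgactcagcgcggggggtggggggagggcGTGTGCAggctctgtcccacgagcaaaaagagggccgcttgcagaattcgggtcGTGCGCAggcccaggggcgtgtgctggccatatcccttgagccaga
Slc30a1 promoter, chr1:191906531-191906830, plus strand: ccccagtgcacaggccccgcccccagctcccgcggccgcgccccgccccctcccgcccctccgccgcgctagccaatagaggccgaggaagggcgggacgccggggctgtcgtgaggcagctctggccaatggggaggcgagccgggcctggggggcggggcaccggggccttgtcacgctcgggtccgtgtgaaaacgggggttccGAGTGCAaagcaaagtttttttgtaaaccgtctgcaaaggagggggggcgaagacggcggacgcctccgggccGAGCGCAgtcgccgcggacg
The Mt1 window held 3 cores, all on the plus strand, the Mt2 window 4, of which 2 were on each strand, and the Slc30a1 window 2, both on the minus strand. Each of these windows covers 1 start only. Transcripts Mt1-203 and Mt1-202 start at bases 94179211 and 94179241 of chromosome 8 and Mt2-202 at base 94172860, past the ends of the windows, and cores near those starts were not searched. The Mtf1 window held 0, and the Slc39a8 windows (2 annotated starts) held 0 and 1. Of 32851 promoter windows of the same length, 25.7% held at least 1 such core and 1.97% held 3 or more. The letters TTCNNNGAA, which STAT factors bind, were in none of the windows of these 5 genes and in 8.30% of all promoters. The kappaB letters (GGGA and CC with any 4 bases between them) occurred once in the Mt1 window and in 20.7% of all promoters. The core of the antioxidant response element, TGACNNNGC, occurred once each in the Mt2 window, the Slc30a1 window and the first Slc39a8 window, and in 12.4% of all promoters. These are matches of letters only. Slc39a14 had no entry in the promoter table.

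After LPS, 4 of the 6 genes were higher (Mt1, Mt2, Mtf1 and Slc39a14), 1 was lower (Slc39a8) and Slc30a1 did not pass the test, although Mtf1 was called lower and Mt1 lost its call when plain library totals replaced TMM scaling (edgeR quasi-likelihood test, adjusted p under 0.05 over all genes tested). LPS moved much of the transcriptome, and 64.1% of all 13847 tested genes passed the same test, with 30.3% of the tested genes higher and 33.8% lower. The groups did not overlap in CPM for 5 of the 6 genes, and for 60.2% of all tested genes. CPM here refer to the library size after TMM scaling, which assumes that most genes did not move. That scaling matters in these libraries: when plain library totals were used instead, an alternative chosen after seeing the data, the log2 fold change of the median gene fell by 0.68, and 2 of the 6 genes were called higher (Mt2 and Slc39a14) and 3 lower (Slc39a8, Slc30a1 and Mtf1). Of all 13847 tested genes 10445 were then called, and 19.0% of those calls were higher. In bulk RNA a difference in the number of cells of a type and a difference in RNA per cell cannot be told apart.

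**Figure D1:**
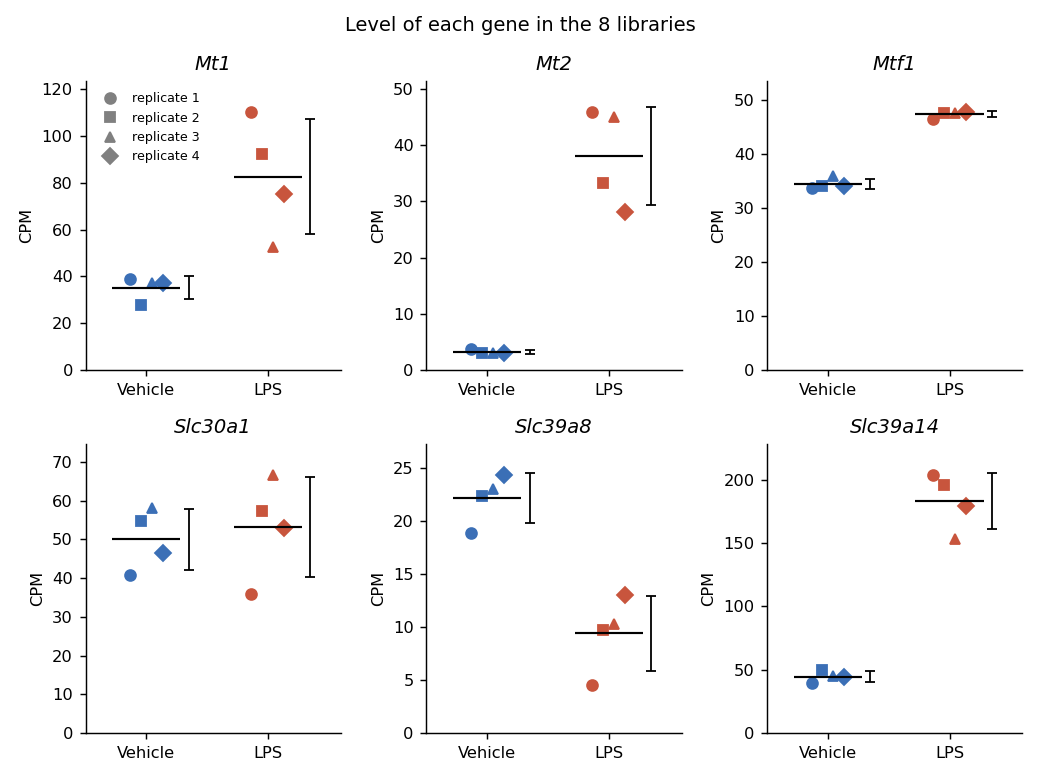
CPM after TMM scaling (vertical axes, each starting at 0) of the 6 genes in 4 vehicle and 4 LPS libraries. Each symbol is 1 library with its shape giving the replicate number, the horizontal line is the group mean and the bar beside it the SD. Mt2 and Slc39a14 show the widest gaps between groups, and the groups overlap for Slc30a1 alone.

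Of the 6 genes Mt2 had the largest change. Its level was 3.78, 3.15, 2.98 and 3.09 CPM in vehicle replicates 1 to 4 and 45.9, 33.3, 45.0 and 28.2 CPM in LPS replicates 1 to 4. Every LPS library was far above every vehicle library, and the low vehicle level rested on 87 to 108 counts. The mean rose from 3.25 ± 0.36 to 38.1 ± 8.74 CPM (SD, n = 4 each), a log2 fold change of 3.55 (SE 0.19, adjusted p = 5.49e-07, edgeR) or 11.7-fold. Of all tested genes, 96.8% had a smaller log2 fold change. The change was 3.47 without LPS replicate 3 and 2.87 with library totals (adjusted p = 1.24e-06), and the 4 same-numbered pairs gave differences of 3.15 to 3.87.

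The antisense gene Gm45774 covers 73.5% of the exonic bases of Mt2 on the opposite strand. It was counted at 13.2% to 31.5% of the Mt2 count in vehicle and at 11.3% to 26.1% in LPS libraries, and its own log2 fold change was 3.39 (adjusted p = 3.50e-05, edgeR). The sources used here do not say if the counting was strand-specific, so Mt2 and Gm45774 reads cannot be told apart in that region.

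Mt1, the other metallothionein found in most cell types, measured 39.0, 27.9, 37.1 and 37.1 CPM in vehicle replicates 1 to 4. In LPS replicates 1 to 4 it measured 110, 92.2, 52.6 and 75.3 CPM. The groups did not overlap, but LPS replicate 3 was the lowest of its group and nearest to vehicle. The mean rose from 35.3 ± 5.03 to 82.6 ± 24.6 CPM, a log2 fold change of 1.23 (SE 0.21, adjusted p = 7.09e-04, edgeR) or 2.34-fold, and it was 1.40 without LPS replicate 3. With library totals the change was 0.57 and no longer passed (adjusted p = 0.0570), and the groups then overlapped, since LPS replicate 3 had 36.8 CPM of its plain total and vehicle libraries 35.6 to 48.9.

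Mt1 and Mt2 did not move by the same factor. The ratio of Mt1 to Mt2 counts within a library does not depend on scaling, and its log2 was 3.35, 3.13, 3.62 and 3.57 in vehicle replicates 1 to 4 and 1.26, 1.47, 0.23 and 1.42 in LPS replicates 1 to 4. All 4 LPS libraries were below all 4 vehicle libraries, and LPS replicate 3 was lowest. Mt1 had 10.7 times the counts of Mt2 in vehicle and 2.13 times in LPS libraries (geometric means), a log2 difference of -2.33 (exact permutation test, two-sided, p = 0.0286, as low as 4 against 4 libraries can reach, and 0.0286 after adjustment over the 3 single values tested). Taken as 4 same-numbered pairs, the ratio was lower after LPS in 4 of 4, for which an exact sign-flip test gives p = 0.125, the smallest it can give. Without LPS replicate 3 the log2 difference was -2.04.

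Mt1 and Mt2 together took 0.00487% ± 0.00064 of all counts in vehicle and 0.00963% ± 0.00264 in LPS libraries (SD, n = 4 each), 1.98 times as much. Values per library were 0.00536%, 0.00397%, 0.00484% and 0.00530% in vehicle replicates 1 to 4 and 0.0130%, 0.0102%, 0.00683% and 0.00847% in LPS replicates 1 to 4. The groups did not overlap (exact permutation test, p = 0.0286, also 0.0286 adjusted over the 3 values), and the sign-flip test of the pairs again gave p = 0.125. Relative to library sizes after TMM scaling the shares were 0.00385% ± 0.00052 and 0.0121% ± 0.00265, 3.13 times as much, so the size of this difference rests on the scaling.

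The remaining metallothioneins were scarce. Mt3, known chiefly from neurons and astrocytes, measured 1.11 to 1.49 CPM in vehicle and 0.0466 to 0.958 CPM in LPS libraries, without overlap. Its log2 fold change of -1.32 (SE 0.55) did not pass the test (adjusted p = 0.0597, edgeR), and LPS replicate 3 held the lowest level. Without that library the change was -0.91 and passed (adjusted p = 0.0262), and with a replicate block it was -1.48 (adjusted p = 0.0336). Mt4, a gene of stratified epithelia, had 0 counts in all 8 libraries.

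Mtf1 itself moved little and evenly. It measured 33.7, 34.0, 35.9 and 34.2 CPM in vehicle and 46.5, 47.6, 47.6 and 47.8 CPM in LPS replicates 1 to 4. The spread within each group was small, from 34.5 ± 1.01 to 47.4 ± 0.59 CPM, and the groups did not overlap. The log2 fold change was 0.46 (SE 0.08, adjusted p = 5.48e-04, edgeR) with TMM scaling but -0.22 (adjusted p = 0.0430) with library totals, so the direction of the Mtf1 change rests on the scaling. Without LPS replicate 3 it was 0.46.

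Slc30a1, the exporter that Mtf1 is known to induce, was not called changed. It measured 40.8, 54.8, 58.2 and 46.4 CPM in vehicle replicates 1 to 4 and 35.8, 57.3, 66.7 and 53.0 CPM in LPS replicates 1 to 4. The groups overlapped over most of their range, and replicate 1 was lowest and replicate 3 highest in both. The log2 fold change was 0.09 (SE 0.19, adjusted p = 0.691, edgeR), and the pairs differed by -0.19, 0.06, 0.20 and 0.19. It was -0.03 without LPS replicate 3, -0.07 with upper quartile scaling, and -0.60 with library totals, where it was called lower (adjusted p = 0.00790) and the groups did not overlap.

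Slc39a14 and Slc39a8 encode close relatives among the importers, and they moved in opposite directions. Slc39a14 measured 39.1, 49.4, 44.6 and 44.1 CPM in vehicle replicates 1 to 4. It measured 204, 196, 153 and 179 CPM in LPS replicates 1 to 4, every one above every vehicle library. The mean rose from 44.3 ± 4.24 to 183 ± 22.4 CPM, a log2 fold change of 2.05 (SE 0.12, adjusted p = 9.98e-07, edgeR) or 4.13-fold. It was 2.13 without LPS replicate 3 and 1.38 with library totals (adjusted p = 3.10e-05).

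Slc39a8 measured 18.8, 22.3, 23.0 and 24.3 CPM in vehicle replicates 1 to 4. It measured 4.55, 9.69, 10.2 and 13.0 CPM in LPS replicates 1 to 4, all below vehicle, with replicate 1 lowest and replicate 4 highest in both groups. The mean fell from 22.1 ± 2.34 to 9.37 ± 3.54 CPM, a log2 fold change of -1.23 (SE 0.26, adjusted p = 0.00241, edgeR). It was -1.27 without LPS replicate 3 and -1.92 with library totals, and -0.89 to -2.03 in the same-numbered pairs.

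The ratio of Slc39a14 to Slc39a8 counts, again free of scaling, had a log2 of 1.05, 1.15, 0.96 and 0.86 in vehicle and 5.47, 4.33, 3.90 and 3.78 in LPS replicates 1 to 4. It went from 2.00 to 20.7 (geometric means), with no overlap and with LPS replicate 1 highest. The log2 difference was 3.37 (exact permutation test, p = 0.0286, also 0.0286 adjusted over the 3 values), and 4 of 4 pairs rose (sign-flip p = 0.125). Without LPS replicate 3 the difference was 3.52. Gene lengths do not enter the change of this ratio, though they enter its level.

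**Figure D2:**
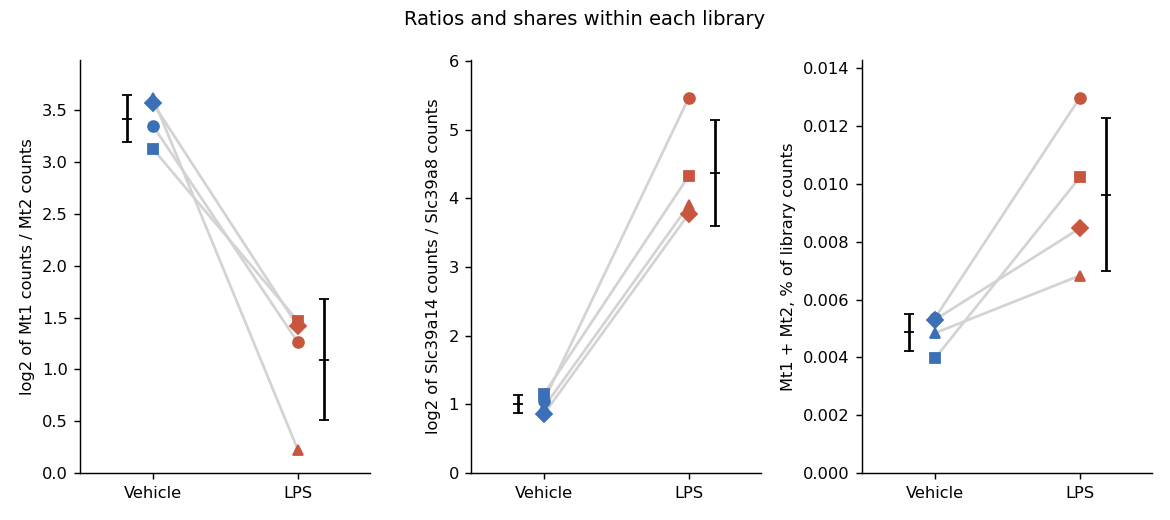
Values within each library (vertical axes start at 0): the log2 ratio of Mt1 to Mt2 counts, the log2 ratio of Slc39a14 to Slc39a8 counts, and the percent of library counts taken by Mt1 and Mt2. The ratios need no scaling between libraries, while the percent is taken of library totals and the size of its difference rests on that scaling. Each symbol is 1 library with its shape giving the replicate number, lines join same-numbered libraries and bars give mean ± SD. The Mt1 to Mt2 ratio is lower in every LPS library, with replicate 3 lowest at 0.23, and the other 2 values are higher in every LPS library.

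Levels were compared between genes as CPM per kb of all annotated exonic bases. In vehicle the order was Mt1 (28.3 ± 4.04), Slc30a1 (9.54 ± 1.51), Mt2 (5.53 ± 0.61), Slc39a14 (4.20 ± 0.40), Mtf1 (3.87 ± 0.11) and Slc39a8 (2.88 ± 0.31), and among neighbours only the ranges of Slc39a14 and Mtf1 overlapped. After LPS the order was Mt1 (66.3 ± 19.7), Mt2 (64.8 ± 14.9), Slc39a14 (17.4 ± 2.12), Slc30a1 (10.1 ± 2.46), Mtf1 (5.32 ± 0.07) and Slc39a8 (1.22 ± 0.46), and among neighbours only Mt1 and Mt2 overlapped. The place of Mt1 depends on the length used, because its annotated transcripts, of which 1 retains the introns, join into 1246 exonic bases. Over the 549 bases of Mt1-201 and the 511 bases of Mt2-201 the levels after LPS were 150 ± 44.7 and 74.5 ± 17.1 CPM per kb, and in vehicle 64.3 ± 9.16 and 6.36 ± 0.71. Slc39a14 and Slc39a8 join into 10550 and 7664 exonic bases, while their transcripts with the longest coding part hold 2075 to 4926 and 3203 to 3533. Their places depend on the length too, so the order holds for all exonic bases only.

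The importers, Slc39a14 and Slc39a8 included, moved in both directions. Of 14 SLC39 genes 12 were tested, 3 were higher, 5 lower and 4 not called, beside 30.3% higher and 33.8% lower among all tested genes. Their median log2 fold change was -0.15 against -0.11 over all tested genes. Slc39a12, with 0 to 3 counts in LPS libraries, passed the filter only through vehicle, and among the 11 genes left when each library had to hold 10 counts or more, 3 were higher and 4 lower. With library totals 1 of the 12 was higher and 7 lower, where 10445 of all 13847 tested genes were called and 19.0% of those calls were higher. Slc39a1 (ZIP1), the most abundant zinc importer per kb of all exonic bases, rose from 42.6 ± 3.49 to 77.1 ± 9.20 CPM per kb (log2 fold change 0.85, adjusted p = 1.37e-04, edgeR). With library totals its log2 fold change was 0.19 and did not pass. Slc39a13 (0.67, adjusted p = 0.0216) overlapped between groups and lost its call without LPS replicate 2 (0.55) or 4 (0.52), and without vehicle replicate 4 (0.67, adjusted p = 0.0507). Slc39a13 also lost it with upper quartile scaling (0.52, adjusted p = 0.0694) and with library totals (0.01, adjusted p = 0.969).

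Among importers that fell, Slc39a10 (ZIP10), which Mtf1 is known to repress, went from 28.1 to 36.5 CPM in vehicle to 4.68 to 6.6 CPM in LPS libraries (log2 fold change -2.53, adjusted p = 9.76e-07, edgeR). Slc39a11 fell by 1.14 and Slc39a6 fell by 0.52 on the log2 scale (adjusted p = 1.14e-05 and 0.00106). Slc39a12 was scarce, with 66 counts over the vehicle and 6 over the LPS libraries. Relative to library size after TMM scaling its level was 7.04 times lower after LPS (95% exact interval 3.07 to 19.9, counting error only). Its log2 fold change was -2.75 with TMM scaling and -3.41 with library totals (edgeR). Slc39a3 (-0.20), Slc39a4 (0.32), Slc39a7 (0.18) and Slc39a9 (-0.11) did not pass the test. With library totals Slc39a3 (-0.86, adjusted p = 0.00216) and Slc39a9 (-0.79, adjusted p = 2.43e-05) were called lower, Slc39a9 also with upper quartile scaling (-0.26, adjusted p = 0.0168). For Slc39a7, 80.7% of the exonic bases are shared with Gm20427 on the same strand. Slc39a2 measured 0.0634 to 0.525 CPM over all libraries and Slc39a5 at most 0.0355 CPM, and neither was tested.

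Among the 10 SLC30 exporters 6 were tested, 3 higher, 1 lower and 2 not called, beside 30.3% higher and 33.8% lower among all tested genes. Slc30a6 (0.60), Slc30a7 (0.58) and Slc30a9 (0.63) were higher (adjusted p = 0.00172, 3.79e-04 and 0.00200, edgeR), but with library totals their log2 fold changes were -0.09, -0.10 and -0.06 and did not pass. Slc30a5 (ZnT5), which loads zinc into the secretory pathway, fell from 133 ± 13.3 to 47.9 ± 2.32 CPM (log2 fold change -1.47, adjusted p = 2.18e-06). It had the highest level per length of the exporters in vehicle, 18.3 ± 1.82 CPM per kb, and 6.57 ± 0.32 after LPS, below the means of Slc30a1 and Slc30a7. Slc30a4 did not pass (-0.12), with 38.1 CPM in LPS replicate 3 against 18.6 to 21.8 in the other LPS libraries, and without that library it was lower (-0.41, adjusted p = 0.0144). Slc30a2, Slc30a3 and Slc30a8 had 0 counts and Slc30a10 had 1 count in all libraries together.

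**Figure D3:**
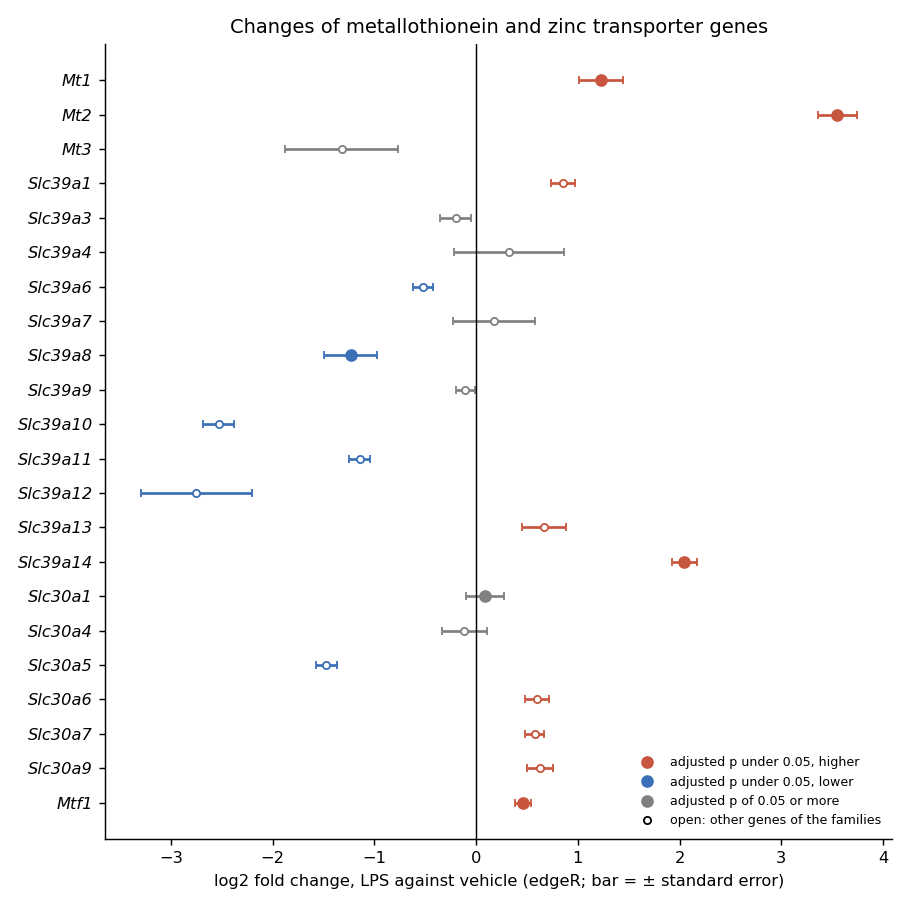
Log2 fold change of LPS against vehicle (horizontal axis, edgeR, bars ± standard error) for Mtf1 and every tested metallothionein, SLC39 and SLC30 gene. Filled points are the 6 genes described here, open points the other genes of the families, and colour gives the call. Importers and exporters lie on both sides of 0, from -2.75 for Slc39a12 to 2.05 for Slc39a14, and with library totals in place of TMM scaling the values of Mtf1 (-0.22) and of Slc30a6, Slc30a7 and Slc30a9 are below 0.

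Summed per length, metallothionein mRNA went from 35.1 ± 4.3 to 132 ± 25.6 CPM per kb, importer mRNA from 109 ± 3.71 to 143 ± 11.7 and exporter mRNA from 45.4 ± 3.26 to 40.5 ± 4.99 (SD, n = 4 each, not tested). Every LPS library was above every vehicle library for the metallothioneins, under TMM scaling and by library totals. For the importers every LPS library was above every vehicle library under TMM scaling, but below by library totals (138 ± 1.4 in vehicle and 113 ± 16.9 after LPS), and for the exporters the groups overlapped under TMM scaling and did not by library totals (57.5 ± 4.79 and 31.9 ± 1.3). The direction of the importer sum therefore rests on the scaling. Under TMM scaling Slc39a1 made up 42.6 of the importer sum in vehicle and 77.1 after LPS, and Slc39a14 made up 4.20 and 17.4.

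**Figure D4:**
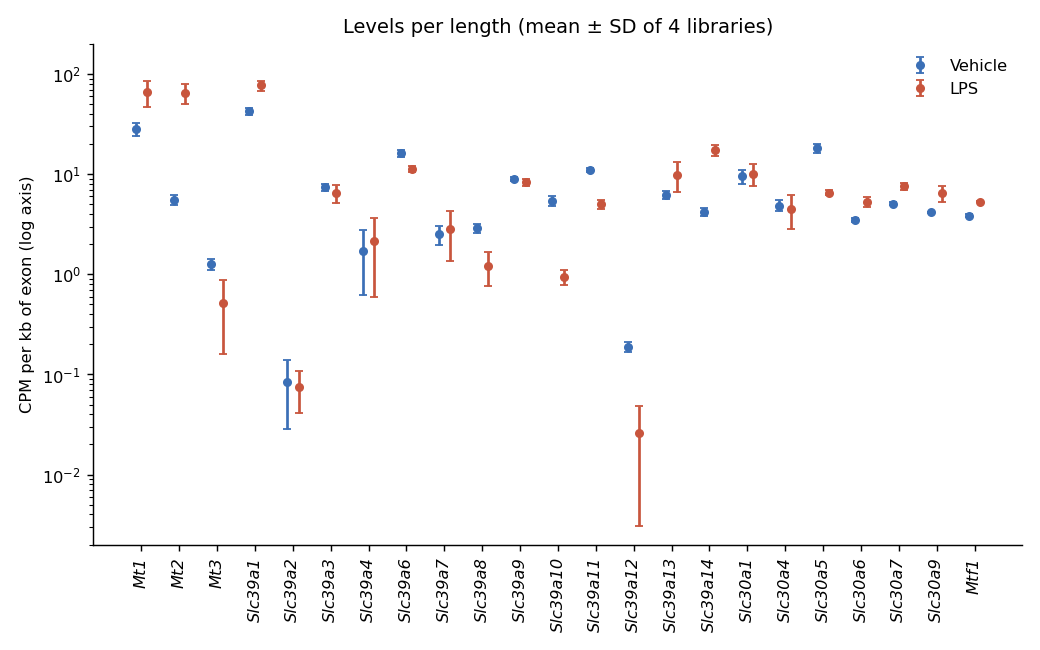
Mean level per length in CPM per kb of exon (vertical log axis) for vehicle and LPS, with bars giving ± SD of 4 libraries. Shown are Mtf1 and the metallothionein, SLC39 and SLC30 genes with a mean above 0.1 CPM in vehicle, so Mt4, Slc39a5, Slc30a2, Slc30a3, Slc30a8 and Slc30a10 are left out. Mt1, Mt2 and Slc39a1 are the highest after LPS, at 66.3, 64.8 and 77.1.

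Genes known to respond to Mtf1 were not all called changed. Of 9 listed 8 were tested, 4 were higher (Mt1, Mt2, Ndrg1 and Selenow), 1 was lower (Slc39a10) and 3 were not called (Slc30a1, Gclc and Csrp1). Among all tested genes 30.3% were higher and 33.8% lower. The median log2 fold change of the list was 0.88 against -0.11 over all tested genes. Slc39a10, which Mtf1 is known to repress, is part of the list, so its counts and median are not of 1 expected direction. With library totals 3 of the 8 were higher and 3 lower, where 10445 of all 13847 tested genes were called and 19.0% of those calls were higher. Ndrg1, which also answers to low oxygen and stress, rose from 3.36 to 10.5 CPM in vehicle to 207 to 270 CPM after LPS (log2 fold change 5.22, adjusted p = 2.16e-06, edgeR). Selenow, a small selenoprotein, rose by 2.67 on the log2 scale (adjusted p = 2.56e-06). Gclc, a subunit of the enzyme that starts glutathione synthesis, had -0.42 (adjusted p = 0.0570) and Csrp1 0.53 (adjusted p = 0.0859). With the replicate block Csrp1 was called higher (0.52, adjusted p = 0.00438), which makes 5 of the 8 higher, and Gclc was called lower without LPS replicate 3 (-0.50, adjusted p = 0.0380).

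Metallothioneins also bind copper, and of 10 genes of copper handling 9 were tested, 7 higher and 2 lower, beside 30.3% higher and 33.8% lower among all tested genes, with a median log2 fold change of 1.43 against -0.11 over all tested genes. Atp7b and Steap4 passed the filter only through the LPS libraries, and of the 7 genes left when each library had to hold 10 counts or more, 5 were higher and 2 lower, with a median of 1.34 against -0.04. Atp7a (0.44) was not called with upper quartile scaling or library totals, where it was -0.26. The copper importer Slc31a1 (CTR1) rose by 1.40 and its relative Slc31a2 by 2.68 on the log2 scale (adjusted p = 6.02e-04 and 1.42e-06, edgeR). Sco1 (1.86) and Cox17 (1.43), which deliver copper to cytochrome c oxidase, were higher (adjusted p = 4.00e-04 and 1.72e-05). The chaperone Atox1, which hands copper to the ATPases of the secretory pathway, fell by 1.42 (adjusted p = 1.15e-04). Atp7b (3.55) and the metalloreductase Steap4 (3.47) were called higher from levels of at most 0.142 and 0.415 CPM in vehicle, where few counts make the size of the change uncertain.

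The genes whose profiles over the 8 libraries were most like each member were found among 11089 tested genes, by the root mean square distance between log2 CPM centred on each gene's mean. For Mt2 they were Gys1, Hk1 and Tpi1 (0.09, 0.12 and 0.13), enzymes of glycogen synthesis and glycolysis, and for Slc39a14 they were Hk3, Mthfd2 and Foxp1 (0.09, 0.10 and 0.10). For Mt1 they were Yju2, Ercc1 and Zfand2b (0.15, 0.16 and 0.18), and for Mtf1 Exoc7, Dhdds and Hps5 (0.03, 0.05 and 0.05). For Slc30a1 they were Bcl9, Sfmbt1 and Inpp5k (0.09, 0.10 and 0.10), and for Slc39a8 Fam185a, Zfp72 and Cmc2 (0.16, 0.19 and 0.20). No member was among the 3 most like another member. The distances use the same libraries as the comparison of the groups and are a description.

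**Figure D5:**
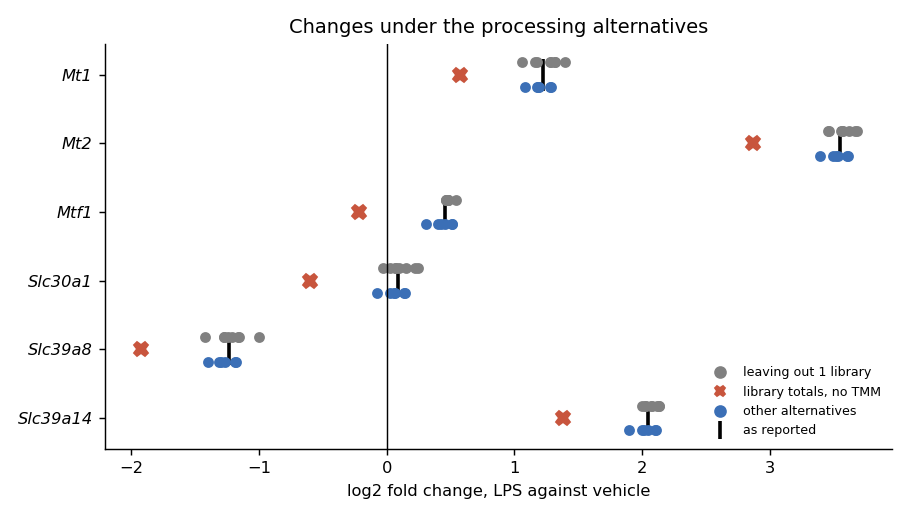
Log2 fold change of LPS against vehicle (horizontal axis) of the 6 genes as reported (vertical bars), when 1 library is left out, with library totals in place of TMM scaling, and under the other processing alternatives. Mt2, Slc39a14 and Slc39a8 stay on 1 side of 0 throughout, Mt1 does too but fails the test with library totals, and Mtf1 and Slc30a1 lie below 0 with library totals at -0.22 and -0.60.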

How the data were processed

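RNA of 4 vehicle and 4 LPS cultures was sequenced in single-end 50-base reads. The authors filtered and counted reads with HTSeqGenie after GSNAP alignment to GRCm38, kept uniquely aligned reads, and deposited raw counts per Ensembl gene without normalization, of which all 8 columns were used. Labels and paper differ on the kit (stranded TruSeq mRNA or another TruSeq) and on the sequencer (NovaSeq or HiSeq). Which annotation was counted, and whether by strand, is not given in the sources used here.

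Symbols and exonic lengths came from GENCODE vM21 and promoters from RefSeq (GRCm38.p6). Depth was 20071921 to 30604447 counts, and a floor of 3 counts per library and the interval given for Slc39a12 cover counting error only. The groups were compared with edgeR 4.0.16 in R 4.3.3 (TMM, filterByExpr at a minimum of 10 counts and a total of 15, quasi-likelihood test, two-sided, no covariate), with Benjamini-Hochberg adjustment over all tested genes and a threshold of 0.05. Standard errors are the log2 fold change divided by the root of F. Ratios used a pseudocount of 1 count, log2 CPM profiles one of 0.1 CPM, and single values the 70 divisions of the 8 libraries in an exact permutation test. Python 3.11.15 was used with scipy 1.17.1, pandas 2.3.3, numpy 2.4.6 and matplotlib 3.10.9, and the fits were tested on simulated data.

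Named genes are the 6 members, genes of the lists with an adjusted p under 0.05 and an absolute log2 fold change of at least 1, all other genes of the metallothionein, SLC39 and SLC30 families, and the 3 genes most like each member (mean log2 CPM of at least 1). Gclc, Csrp1, Gm45774, Gm20427, Gja1, Atp7a and the other cell type markers were named after their values were seen. The members and lists were chosen with earlier results of these data known. After each group's mean was removed, vehicle and LPS libraries of the same number correlated over 8382 genes at or above a mean log2 CPM of 3 (r = 0.362, 0.184, 0.183 and 0.128, replicates 1 to 4). Of libraries with unlike numbers, vehicle 2 with LPS 4 (r = 0.154) and vehicle 4 with LPS 2 (r = 0.140) exceeded the pair of replicate 4, and the rest were negative. Same-numbered pairs were all over 0.1, so the numbers were treated as pairs in a replicate block, one of the alternatives. The others were DESeq2 1.42.0 in place of edgeR, its size factors, upper quartile scaling, library totals, 2 filters, 2 thresholds and leaving out each library. No batch is named in the labels, and one aligned with treatment cannot be told apart from LPS.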

Additional observations from a re-analysis of the deposited data

Results flagged for a closer look

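Among 50 groups of 4 libraries examined for a library far from the other 3, 4 were found, and chance gives about 1 in 20. Mt1 was at 27.9 CPM in vehicle replicate 2 and at 37.1 to 39.0 CPM in the other vehicle libraries. Mtf1 was at 46.5 CPM in LPS replicate 1 and at 47.6 to 47.8 CPM in the other LPS libraries, a small gap that stands out because these are so close. Slc30a4 was at 38.1 CPM in LPS replicate 3 and at 18.6 to 21.8 CPM in the other LPS libraries. The log2 ratio of Mt1 to Mt2 was 0.225 in LPS replicate 3 and 1.26 to 1.47 in the other LPS libraries, and this library is the one that stood apart by GC content. The GC content of the longest transcript was 52.9% for Mt1 and 55.6% for Mt2, and whether the base composition of the library has a part in the ratio was not tested.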

How the results depend on the processing

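The calls of Mt2, Slc39a8 and Slc39a14 were the same under all 15 alternatives, with log2 fold changes of 2.87 to 3.68, -1.92 to -1.001 and 1.38 to 2.13. Scaling moved the members' values most: the log2 fold change of the median gene fell by 0.68 with library totals, chosen after seeing the data, and fell by 0.16 with upper quartile scaling, and the share of all calls that were higher was 47.2% with TMM, 39.6% with upper quartile scaling and 19.0% with library totals. With library totals 2 members were called higher and 3 lower, 1 SLC39 gene higher and 7 lower, and 0 SLC30 genes higher and 3 lower, and Mtf1 (-0.22), Slc30a1 (-0.60), Slc39a4 (-0.31), Slc39a7 (-0.46), Slc30a6 (-0.0858), Slc30a7 (-0.10) and Slc30a9 (-0.0585) reversed. Slc30a1 also reversed with upper quartile scaling (-0.0740) and without LPS replicate 3 (-0.0320), Slc39a4 (-0.27) and Slc30a4 (0.0035) without LPS replicate 1, and Slc39a7 (-0.0904) without LPS replicate 4. When 1 library was left out these 4 genes ranged from -0.0320 to 0.246 (Slc30a1), -0.27 to 0.911 (Slc39a4), -0.405 to 0.0035 (Slc30a4) and -0.0904 to 0.494 (Slc39a7). A minimum absolute log2 fold change of 1 left 1 SLC39 gene and 0 SLC30 genes higher. Leaving out 1 library gave 1 to 2 SLC30 genes lower. With TMM sizes as the denominator the difference in the share of counts taken by Mt1 and Mt2 was 0.00821 percentage points. Against library totals it was 0.00365 to 0.00570 when 1 library was left out, with an exact permutation p of 0.0571 without any 1 vehicle library. With the replicate block the single values were the same (-2.33, 3.37 and 0.00477) but the sign-flip p was 0.125 for each, the smallest it can give, and the pairing changed no call of the 6 members, while Mt3 and Csrp1 gained one. Mt1 kept its call in 14 of 15 alternatives. Depth limits Mt3, Slc39a12, Atp7b and Steap4, which rest on few counts per library.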
